A study of Mus musculus with 6 samples.

Results

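The genes described here are 32 immediate early and stress response genes of the mouse kidney at E13.5, of 18194 genes that had a probe set of their own on the Affymetrix MOE430.2 array. They comprise 23 immediate early genes, 5 heat shock genes, 2 genes of endoplasmic reticulum (ER) stress and 2 metallothioneins. A member was read from probe sets that the platform annotation gives to it alone, 58 in all, and where there were several the brightest by the mean of all 6 arrays stood for the gene. The tested kidneys were Fz4-/- (3 samples) and the comparison kidneys were Fz4+/+ (3 samples), all whole kidneys taken on that embryonic day, and within each of the 3 litters both genotypes were sampled once. Fzd4 encodes Fz4, a Frizzled receptor that Wnt proteins and Norrin activate. The labels do not say how Fzd4 was disrupted, which strain was used, or whether a sample was 1 embryo or several. The spread behind each p-value is one between samples. For the genotype fit it is the spread within genotypes. For fits with both litter and genotype it is what remains after both are taken out.

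Immediate early genes are switched on within minutes by growth factors, stress or handling of a tissue, without new protein synthesis. Many encode transcription factors (the Fos, Jun, Egr and Klf families), and others encode phosphatases or RNA-binding proteins that end the signal. Heat shock genes encode chaperones induced by unfolded protein, ER stress genes respond to unfolded protein in the secretory pathway, and metallothioneins are small proteins that bind zinc and copper. In bulk tissue, fewer cells that express a gene cannot be told apart from less RNA per cell.

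On its brightest probe set the log2 signal of Fzd4 was 4.37, 3.58 and 6.22 in Fz4-/- kidneys (litters 1, 2, 3), against 11.21, 11.12 and 10.31 in Fz4+/+ kidneys. Of 12 kidney marker genes 11 had a probe set of their own, all 11 passed the filter on low signal, and their mean lay between 9.72 and 9.76 in Fz4-/- and between 9.58 and 9.70 in Fz4+/+ samples. The median signal of the arrays was 6.62 to 6.74. With so few arrays the precision is low. Of the variance 70.8% lay on the first principal component, whose scores were 48.7 (Fz4-/-) and 70.1 (Fz4+/+) in litter 3, against -48.9 to -0.1 for the other 4 samples. The Fz4+/+ sample of litter 2 read lowest of all 6 on 35.4% of the 27022 tested probe sets.

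Upstream sequence is shown for 4 members whose values are described below and whose window holds a motif searched for, so that a reader can see those letters in place. It was taken from RefSeq on GRCm38.p6, whose promoter table held 27 of the 32 members. Egr1, Egr3, Ier2, Myc and Hsp90aa1 were not in it, so no motif was searched for in them. Each run is the 250 bases before the transcription start on the plus strand, 5′ to 3′. In Mt1 (chr8:94178839-94179088) and Mt2 (chr8:94172368-94172617) the capitals mark the metal response core TGCNCNC on either strand. In Egr2 (chr10:67537316-67537565), shown for the first of its 5 listed starts whose window holds a CArG box, they mark that box, which is the serum response motif, and a heat shock element. In Hspb1 (chr5:135887669-135887918) they mark heat shock elements, searched for as GAANNTTC and TTCNNGAA.
Mt1: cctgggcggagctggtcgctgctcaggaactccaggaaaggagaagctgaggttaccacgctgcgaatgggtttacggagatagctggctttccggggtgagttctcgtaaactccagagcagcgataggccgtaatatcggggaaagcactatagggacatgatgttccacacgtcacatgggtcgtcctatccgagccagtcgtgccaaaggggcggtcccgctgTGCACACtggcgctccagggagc
Mt2: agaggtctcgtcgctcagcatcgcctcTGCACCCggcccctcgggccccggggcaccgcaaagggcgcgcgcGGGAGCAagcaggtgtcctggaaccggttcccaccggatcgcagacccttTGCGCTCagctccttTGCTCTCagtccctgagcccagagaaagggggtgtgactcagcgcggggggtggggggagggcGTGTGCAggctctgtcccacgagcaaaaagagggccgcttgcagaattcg
Egr2: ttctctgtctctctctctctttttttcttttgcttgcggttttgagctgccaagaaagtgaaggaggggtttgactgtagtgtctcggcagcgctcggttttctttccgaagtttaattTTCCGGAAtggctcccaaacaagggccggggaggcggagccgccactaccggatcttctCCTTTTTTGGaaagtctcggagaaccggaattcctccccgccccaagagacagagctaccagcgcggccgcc
Hspb1: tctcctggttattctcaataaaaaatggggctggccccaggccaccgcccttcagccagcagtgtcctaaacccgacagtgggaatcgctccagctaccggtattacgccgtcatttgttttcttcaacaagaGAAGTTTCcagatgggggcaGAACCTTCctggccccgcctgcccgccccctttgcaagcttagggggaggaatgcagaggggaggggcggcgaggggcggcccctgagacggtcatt
The metal response core was in 44.4% of the 32851 promoters of the table and in windows of 18 of the 27 members. It was at 1 place in the Mt1 window and at 5 in the Mt2 window. The Hspb1 window held it at 2 places, which are not marked. A CArG box was in 1.47% of all promoters and, of the 27 members, in windows of Egr2 and Zfp36. A heat shock element was in 12.8% of all promoters and in windows of 5 members (Egr2, Hspa1a, Hspa1b, Hspb1 and Jun). On both strands, the AP-1 site TGANTCA was in 6.75% of promoters and in 3 members (Ddit3, Hspa5 and Mt2), and the cyclic AMP response element TGACGTCA was in 1.55% and in 2 members (Btg2 and Dusp1). The letters TATAAA were in 12.4% of promoters and in 3 members (Fos, Gadd45b and Gadd45g). Sequence outside these windows was not searched, and a match of letters is a description and not a site.

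Whether these genes differ between Fz4-/- and Fz4+/+ kidneys was asked gene by gene within the fit over all tested probe sets. No member passed the threshold, and most differences lay close to 0. Of the 32 members 29 passed the filter on low signal (mean of all arrays at or above the 40th percentile, 5.89 log2) and were tested, and Fosb, Junb and Hspa1a did not pass it. With limma and an adjusted p under 0.05, 0 of 29 members were called, as were 0% of all 27022 probe sets. At an unadjusted p under 0.05 the members numbered 0, against 0.884% of all probe sets, and their p ran from 0.137 to 0.997. The adjusted p was 0.999988 for each tested member. Fzd4 itself was not called in this fit either. Its brightest probe set differed by -6.16 ± 0.68 log2 (SE), and limma's adjusted p was 0.999988 there too. The absence of calls at this threshold thus does not show that the members were unchanged. Differences of the members (Fz4-/- minus Fz4+/+, log2) ran from -0.61 for Egr2 to 0.28 for Mt1, and 29 of the 32 members lay within 0.2 of 0. Of the tested members 17, or 58.6%, were above 0, against 61.6% of all probe sets. For 1 member, Dusp2, all Fz4-/- values lay on one side of all Fz4+/+ values. That is 3.45%, against 3.64% of all probe sets. The direction was the same in all 3 litters for 6 members or 20.7%, against 21.5% of all probe sets. Jun, Atf3 and Hspb1 were higher in each Fz4-/- kidney than in its litter mate, 10.3% against 14.2% of all probe sets, and Egr1, Egr2 and Dusp2 were lower, 10.3% against 7.28%. These shares are near those of the whole array.

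**Figure D1:**
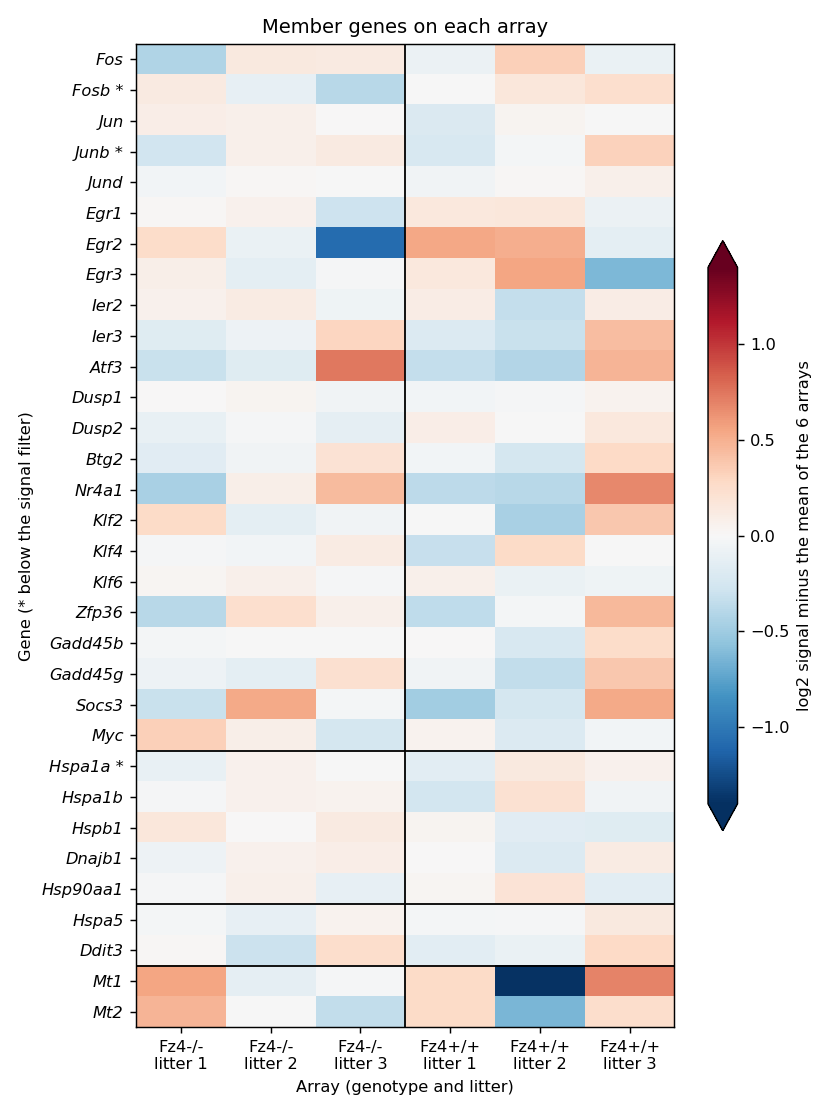
Log2 signal of each of the 32 members minus its mean over the 6 arrays (colour), by array (columns, Fz4-/- left of Fz4+/+) and gene (rows, with lines between immediate early, heat shock, ER stress and metallothionein genes). The deepest blue cells are Mt1 in the Fz4+/+ sample of litter 2 (6.98 log2) and Egr2 in the Fz4-/- sample of litter 3 (4.98 log2), and Atf3 and Nr4a1 are red in both samples of litter 3.

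**Figure D2:**
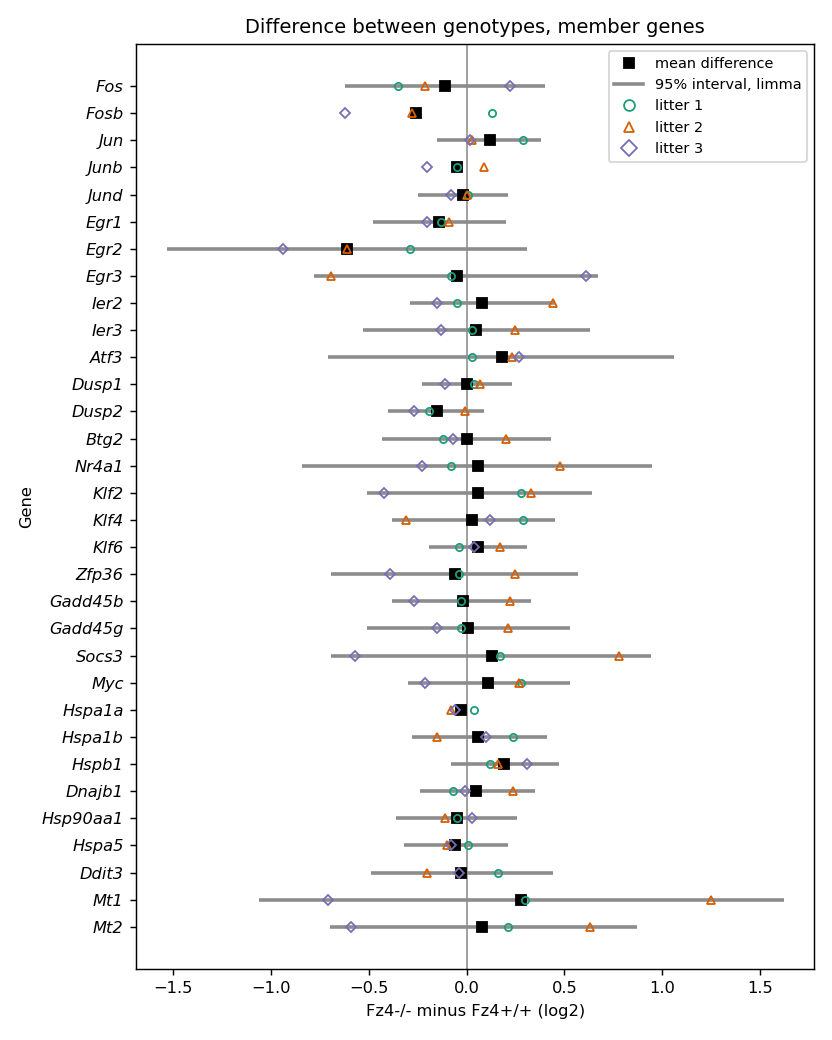
Difference Fz4-/- minus Fz4+/+ in log2 signal (x axis) for each member (y axis): black squares are means of 3 against 3, grey bars limma's 95% interval for the 29 tested members, and open symbols the difference within each litter. All 29 intervals include 0, and the widest spread between litters is that of Mt1, from -0.71 in litter 3 to 1.25 in litter 2.

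Among the Egr family of zinc finger transcription factors, Egr2, which is known for its part in hindbrain patterning and Schwann cells, was farthest from 0. It read 6.31, 5.96 and 4.98 in Fz4-/- kidneys of litters 1, 2 and 3, against 6.60, 6.57 and 5.92 in Fz4+/+ kidneys. Each Fz4-/- kidney lay below the Fz4+/+ kidney of its own litter, by 0.29, 0.61 and 0.94 as absolute values, but the genotypes overlapped. The difference was -0.61 ± 0.38 (SE), with limma's 95% interval from -1.53 to 0.31 and an unadjusted p of 0.156. With the litter as a block the SE was 0.15 and limma's unadjusted p 0.0137, the only member under 0.05 in that fit, where 3.11% of all probe sets were, and its adjusted p was 0.999986. Leaving out the Fz4-/- kidney of litter 3 gave a difference of -0.23. That fit kept the Fz4+/+ kidney of litter 3, the lowest of its genotype, so litters were no longer balanced between the genotypes. The differences within litters 1 and 2 were larger in size, as given above. The other Egr2 probe set read 6.13, 5.59 and 5.60 in Fz4-/- against 6.14, 6.76 and 5.73 in Fz4+/+ kidneys, a difference of -0.44. Genes of neurons and chromaffin cells were also lower in Fz4-/- samples for 8 of 9, and their mean was 6.11, 6.07 and 6.49 in Fz4-/- and 6.24, 6.87 and 7.25 in Fz4+/+ samples. Within each genotype that mean was highest in litter 3, where Egr2 was lowest. Liver markers (8 of 8) and muscle markers (11 of 12) were below 0 too, beside 10386 of all 27022 tested probe sets. The part of these cells in the Egr2 values was not tested.

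Egr1, a widely used readout of early gene induction, had the same direction on a smaller scale. Its log2 signal was 10.79, 10.84 and 10.49 in Fz4-/- samples, against 10.92, 10.93 and 10.69 in Fz4+/+ samples, so both samples of litter 3 were lowest. The difference was -0.14 ± 0.14 (SE), with an unadjusted limma p of 0.36. The brighter Egr3 probe set showed no common direction: it read 5.98, 5.76 and 5.88 in Fz4-/- and 6.05, 6.45 and 5.27 in Fz4+/+ samples, and its difference ran from -0.69 in litter 2 to 0.61 in litter 3. The other Egr3 probe set, nearly as bright and under the filter, read 5.75, 5.86 and 5.74 in Fz4-/- and 5.96, 6.08 and 5.79 in Fz4+/+ samples, lower in Fz4-/- within each litter, with a difference of -0.17.

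Fos and Jun proteins pair to form the transcription factor AP-1. Fos read 6.09, 6.64 and 6.63 in Fz4-/- and 6.43, 6.84 and 6.41 in Fz4+/+ kidneys, a difference of -0.11 ± 0.21 (SE) that was below 0 in litters 1 and 2 and above 0 in litter 3. Fosb, not tested for its low signal, read 3.74, 3.49 and 3.22 in Fz4-/- against 3.60, 3.77 and 3.84 in Fz4+/+ samples. All of its readings lie below the filter. Jun was nearly level, at 10.73, 10.71 and 10.65 in Fz4-/- against 10.44, 10.68 and 10.63 in Fz4+/+ kidneys, and its other probe set differed by -0.08 where the first differed by 0.12. Jund, the AP-1 member known for steady expression, spanned only 0.12 log2 over the 6 arrays on its brightest probe set. Its other probe set, under the filter, spanned 0.67. It was higher in Fz4-/- within each litter, with a difference of 0.26. Junb, also under the filter, read between 5.19 and 5.79 over the 6 arrays, and its difference was -0.05.

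Among genes that end early signals, Dusp2, a phosphatase that inactivates MAP kinases, was the member without overlap. It read 6.68, 6.77 and 6.66 in Fz4-/- kidneys, against 6.87, 6.78 and 6.93 in Fz4+/+ kidneys, and in litter 2 the samples were 0.01 apart. The difference was -0.15 ± 0.10 (SE), with a 95% interval from -0.40 to 0.09 and an unadjusted limma p of 0.175. Dusp1, a phosphatase of the same family, had the smallest range of all members, 0.11 log2, and limma's 95% interval of its difference ran from -0.23 to 0.23. Zfp36, which binds AU-rich messages and speeds their decay, read 6.64, 7.26 and 7.09 in Fz4-/- and 6.67, 7.0 and 7.48 in Fz4+/+ kidneys. Both samples of litter 1 were lowest, and the difference was -0.06 ± 0.26. Socs3, the feedback inhibitor of cytokine receptors, read 7.36, 8.20 and 7.64 in Fz4-/- and 7.18, 7.42 and 8.20 in Fz4+/+ kidneys. Its 2 highest samples were thus of different genotypes and litters, and the difference of 0.13 ± 0.33 combined 0.78 in litter 2 with -0.57 in litter 3. The 3 Socs3 probe sets spanned -0.12 to 0.14, and the one at -0.12 was lower in Fz4-/- within each litter. Btg2, an antiproliferative gene that p53 induces, differed by 0.00 ± 0.18 and Ier2 by 0.08 ± 0.15. The other Btg2 probe set differed by 0.24, from -0.56 in litter 1 to 1.02 in litter 2. Gadd45b, of the stress-induced Gadd45 family, differed by -0.02 ± 0.14, and its 3 probe sets spanned -0.02 to 0.09.

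The Klf family encodes zinc finger transcription factors. Klf2, which endothelial cells express under blood flow, read 8.38, 7.97 and 8.06 in Fz4-/- and 8.10, 7.65 and 8.48 in Fz4+/+ kidneys, a difference of 0.06 ± 0.24 (SE) with opposite signs in litters 2 (0.33) and 3 (-0.42). Its lowest value was that of the Fz4+/+ sample of litter 2, as was the lowest mean of 13 endothelial markers, 8.56 against 8.73 and 8.93 in the other Fz4+/+ samples and 8.83 to 8.91 in Fz4-/- samples. This is not particular to endothelial genes. That sample was lowest for 11 of the 29 tested members, or 37.9%, against 35.4% of all probe sets. The kidney mean (9.58) and the macrophage mean (7.27) were lowest there too. The part of endothelial RNA in the Klf2 values was not tested. Klf4, a regulator of epithelial differentiation, differed by 0.03 ± 0.17, and Klf6 by 0.06 ± 0.10, with a 95% interval from -0.19 to 0.31. Of the 5 Klf6 probe sets 4 were above 0. Myc, the growth regulator expressed in the cap mesenchyme and ureteric bud, read 10.71, 10.46 and 10.13 in Fz4-/- and 10.43, 10.19 and 10.34 in Fz4+/+ kidneys, a difference of 0.11 ± 0.17.

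The litters were compared next, with genotype as a covariate. Atf3, Nr4a1, Ier3 and Gadd45g had their 2 highest values in litter 3, in both genotypes, whereas Egr2 and Egr1 had their 2 lowest there. limma's F test of litters called 0 of 29 members and 0% of all probe sets at an adjusted p under 0.05. At an unadjusted p under 0.05 there were 5 members (Atf3, Egr2, Nr4a1, Ier3 and Gadd45g), or 17.2%, against 23.0% of all probe sets. Both samples of litter 3 lay above the other 4 for 8 members, or 27.6%, against 36.9% of all probe sets, and below them for 3 members, or 10.3%, against 15.5%. Litter took a median of 61.2% of the sum of squares of the 32 members and 65.9% of that of all tested probe sets. The members thus followed litter no more often than the array as a whole.

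Atf3, a stress-induced repressor of the ATF family, read 7.29 (Fz4-/-) and 7.02 (Fz4+/+) in litter 3, against 6.14 to 6.38 in litters 1 and 2. Litter 3 minus litter 1 was 0.93 ± 0.12 (SE), with limma's F p of 0.00183 unadjusted and 0.145 adjusted, and litter took 94.6% of its sum of squares. Without the Fz4-/- sample of litter 2 the adjusted p was 0.05405, and 0.7542 when the Fz4+/+ sample of litter 3 was left out. Between genotypes, in the fit without litter, Atf3 differed by 0.18 ± 0.36, at 6.24, 6.38 and 7.29 in Fz4-/- and 6.22, 6.14 and 7.02 in Fz4+/+ kidneys. With the litter as a block the SE of that difference was 0.10 and limma's unadjusted p 0.148.

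Nr4a1, an orphan nuclear receptor, read 5.59, 6.13 and 6.49 in Fz4-/- and 5.68, 5.66 and 6.72 in Fz4+/+ kidneys of litters 1, 2 and 3. Both litter 3 values were above all others, and litter 3 minus litter 1 was 0.97 ± 0.21 (SE), with limma's F p of 0.0174 unadjusted and 0.169 adjusted. It was called only in the fit without the Fz4-/- sample of litter 2, so that 1 sample decided the call. That fit left 1 sample in litter 2, and it called many other probe sets across the array too. The call is thus not particular to Nr4a1. Ier3, an early gene that NF-kappaB and growth factors induce, read 7.24, 7.34 and 7.71 in Fz4-/- and 7.21, 7.10 and 7.84 in Fz4+/+ kidneys, and Gadd45g 8.90, 8.84 and 9.20 in Fz4-/- and 8.93, 8.63 and 9.35 in Fz4+/+ kidneys. For Ier3 litter 3 minus litter 1 was 0.54 ± 0.14, and for Gadd45g 0.36 ± 0.14. In Egr2 it was -1.0 ± 0.19, with limma's F p of 0.00991 unadjusted and 0.152 adjusted.

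**Figure D3:**
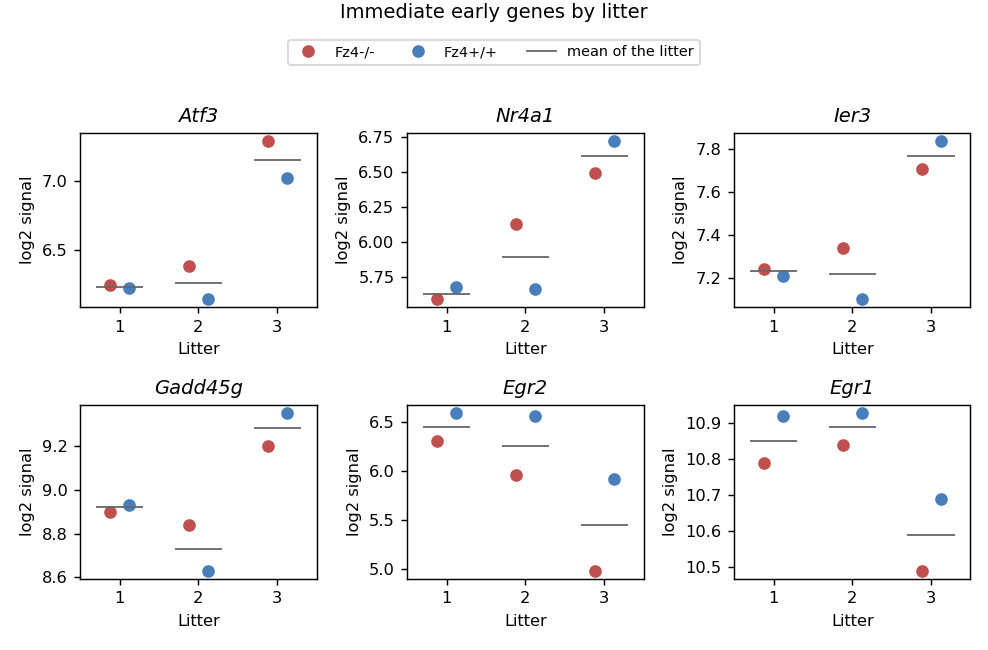
Log2 signal (y axes, each with its own range) of 6 immediate early genes by litter (x axes): each point is 1 sample, Fz4-/- left of Fz4+/+, and the line is the mean of the litter. Both litter 3 samples lie above the rest for Atf3, Nr4a1, Ier3 and Gadd45g and below the rest for Egr2 and Egr1.

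The mean of 12 macrophage markers was also highest in litter 3. It was 7.90 (Fz4-/-) and 8.01 (Fz4+/+) there, against 7.27 to 7.47 in the other 4 samples, and 8 of 11 tested markers had an unadjusted limma F p under 0.05, beside 23.0% of all probe sets. Not every marker was higher there: Fcgr3, one of the 8, read 7.53 (Fz4-/-) and 7.56 (Fz4+/+) in litter 3 and up to 7.59 elsewhere, and Lyz2 read 7.68 and 7.85 there and up to 8.10 elsewhere. As a measure of RNA integrity, the 3' probe set of actin minus its 5' probe set was 0.64 (Fz4-/-) and 0.76 (Fz4+/+) log2 in litter 3, against 0.75 to 0.90 elsewhere, and the same quantity for Gapdh was 0.75 and 0.90, against 0.76 to 0.90. The part of either in the litter 3 values was not tested.

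On their brightest probe sets the heat shock genes were close to level between genotypes, with a median difference of 0.0533 over 5 genes beside 0.0334 over all tested probe sets. Hspb1, a small chaperone that binds actin and unfolded protein, read 8.53, 8.37 and 8.50 in Fz4-/- against 8.41, 8.21 and 8.20 in Fz4+/+ kidneys. Each Fz4-/- kidney was above that of its litter, by 0.12, 0.16 and 0.31, though the lowest Fz4-/- value lay below the highest Fz4+/+ value. The difference was 0.19 ± 0.11 (SE), with limma's 95% interval from -0.08 to 0.47 and an unadjusted p of 0.137, the smallest of the members. Its other probe set read 8.12, 8.07 and 8.04 in Fz4-/- against 7.95, 7.79 and 7.80 in Fz4+/+ kidneys, without overlap, as for 3.64% of all tested probe sets.

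Dnajb1, the co-chaperone that passes substrates to Hsp70, read 10.40, 10.53 and 10.56 in Fz4-/- and 10.47, 10.28 and 10.58 in Fz4+/+ kidneys, a difference of 0.05 ± 0.12 (SE). The other Dnajb1 probe set, also tested, differed by 0.20 ± 0.21. Hsp90aa1, the inducible cytosolic Hsp90, read 12.45, 12.54 and 12.35 in Fz4-/- and 12.50, 12.66 and 12.32 in Fz4+/+ kidneys, a difference of -0.05 ± 0.13, and both samples of litter 3 were lowest. With a trended and robust variance prior, which called 2990 probe sets in all, limma's F test of litters called Hsp90aa1 at an adjusted p of 0.03873. Its adjusted p was 0.348 with the default prior and ran from 0.2583 to 0.9865 under the other alternatives. Its 5 probe sets disagreed in sign between genotypes, from -0.05 to 0.05, and they disagreed on litters too. Another tested probe set read 11.82, 11.91 and 12.04 in Fz4-/- and 11.88, 11.67 and 12.08 in Fz4+/+ kidneys, so both samples of litter 3 were highest there. A further tested one had limma's F p of 0.797 unadjusted. The litter 3 low thus belongs to the brightest probe set alone among these. Hspa1a and Hspa1b encode nearly identical inducible Hsp70 proteins, so their probe sets are uncertain as to which copy they read. Hspa1b read 9.05, 9.12 and 9.11 in Fz4-/- and 8.81, 9.27 and 9.01 in Fz4+/+ kidneys, a difference of 0.06 ± 0.14. The other Hspa1b probe sets, under the filter, differed by 0.16 and 0.22. Hspa1a, below the filter, read 3.72, 3.88 and 3.82 in Fz4-/- and 3.68, 3.96 and 3.88 in Fz4+/+ kidneys.

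Both ER stress genes were level between genotypes. Hspa5, the ER chaperone BiP, read 12.53, 12.44 and 12.61 in Fz4-/- and 12.53, 12.54 and 12.69 in Fz4+/+ kidneys, a difference of -0.06 ± 0.11 (SE) with a 95% interval from -0.32 to 0.21. Ddit3, the transcription factor CHOP that the ER stress kinase PERK induces through Atf4, read 8.54, 8.23 and 8.77 in Fz4-/- and 8.38, 8.43 and 8.81 in Fz4+/+ kidneys, a difference of -0.03 ± 0.19. On this probe set the 2 highest samples were those of litter 3, and litter 3 minus litter 2 was 0.46, with limma's F p of 0.0542 unadjusted and 0.223 adjusted. The other Ddit3 probe set, also tested, ran the other way, with litter means of 6.93, 6.68 and 6.48 in litters 1, 2 and 3. There litter 3 minus litter 1 was -0.45 ± 0.14, with limma's F p of 0.0765 unadjusted and 0.251 adjusted.

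Mt1 had the widest range of all members, 2.08 log2, and Mt2 a range of 1.11, which 4 early genes (Egr2, Egr3, Atf3 and Nr4a1) exceeded. Mt1 read 8.92, 8.24 and 8.35 in Fz4-/- kidneys, against 8.63, 6.98 and 9.06 in Fz4+/+ kidneys, and Mt2 read 10.74, 10.26 and 9.92 in Fz4-/- against 10.53, 9.63 and 10.51 in Fz4+/+ kidneys. The Fz4+/+ sample of litter 2 was lowest for both genes. For Mt1 the difference was 0.28 ± 0.55 (SE), with a 95% interval from -1.06 to 1.62, and it was 0.30, 1.25 and -0.71 within litters 1, 2 and 3. For Mt2 it was 0.08 ± 0.32, and 0.21, 0.63 and -0.59 within litters. Without the Fz4+/+ sample of litter 2 the Mt1 difference was -0.34, so its sign rested on that sample. The second Mt1 probe set, below the filter, read 5.13 to 5.48 in Fz4-/- and 5.15 to 5.61 in Fz4+/+ samples. The mean of 8 liver genes was 7.33, 6.01 and 6.30 in Fz4-/- and 7.38, 6.29 and 7.91 in Fz4+/+ samples, so the 3 samples highest for liver genes were also the 3 highest for Mt1 and Mt2, while the lowest liver mean was that of the Fz4-/- sample of litter 2. Erythroid markers (7 genes) averaged 8.53, 8.37 and 8.46 in Fz4-/- and 8.27, 8.05 and 9.12 in Fz4+/+ samples, lowest in the same Fz4+/+ sample of litter 2. That sample was also lowest for 35.4% of all tested probe sets. The part of these cells in the metallothionein values was not tested.

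**Figure D4:**
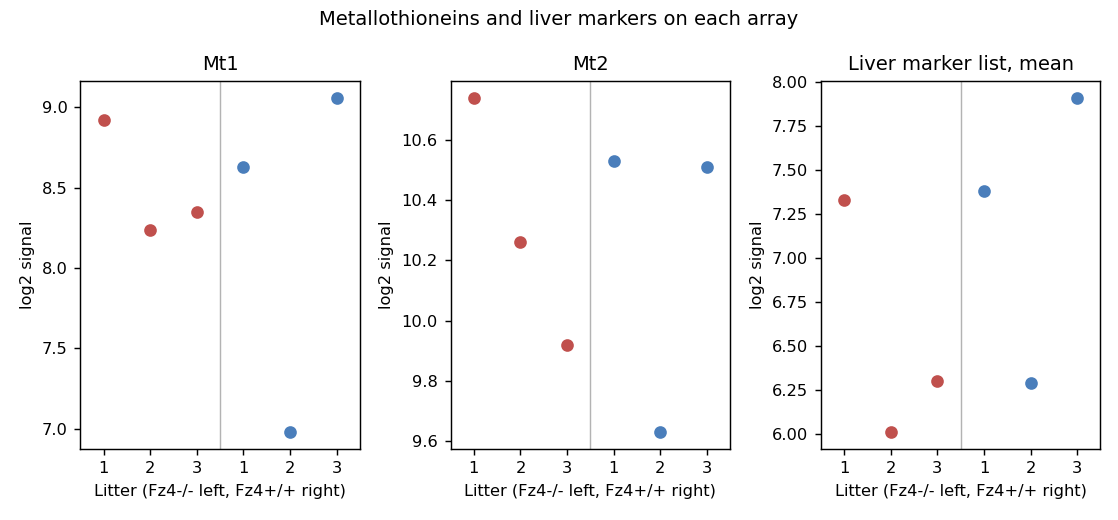
Log2 signal (y axes, each with its own range) of Mt1, Mt2 and the mean of 8 liver marker genes on each array (x axes, litters 1 to 3 of Fz4-/- left and of Fz4+/+ right), 1 point per sample. The Fz4+/+ sample of litter 2 is lowest for Mt1 (6.98) and Mt2 (9.63), and litter 1 of Fz4-/- with litters 1 and 3 of Fz4+/+ are highest in all 3 panels.

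Where a member had several probe sets they did not always share a sign: of 16 such members, all probe sets had 1 sign for 9 and mixed signs for 7. Among mixed genes the largest difference of a probe set was 0.28 (Mt1). Among genes of 1 sign the largest in size were -0.61 (Egr2) and then 0.24 (Btg2).

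Other genes of the same pathways gave a like picture, and limma called none of them between genotypes. Of all tested probe sets 61.6% were above 0, with a median difference of 0.0334. An unadjusted limma p under 0.05 was found for 0.884% of them, and genotypes without overlap for 3.64%. The counts of the lists below are to be read beside these shares. Of 38 other early response genes 36 had a probe set of their own and 32 were tested. Of the 36, 25 were above 0, with a median difference of 0.0468, and 1 had an unadjusted p under 0.05. It was Fosl2, an AP-1 subunit, which read 10.67, 10.71 and 10.57 in Fz4-/- against 10.46, 10.16 and 10.24 in Fz4+/+ kidneys, without overlap. Its difference was 0.36 ± 0.12 (SE), with limma's unadjusted p of 0.0228. Hes1, a Notch target, differed by 0.27 ± 0.15, Csrnp1 by 0.26 ± 0.17 and Id1, an inhibitor of basic helix-loop-helix factors, by 0.32 ± 0.30. Nr4a3, a relative of Nr4a1, differed by -0.16 ± 0.28 and the small Maf factor gene Maff by 0.13 ± 0.24.

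Of 25 other heat shock genes 23 had a probe set of their own, 8 were above 0 and 15 below, with a median difference of -0.00748. Cryab, a small heat shock protein abundant in lens and muscle, read 6.83, 6.85 and 7.42 in Fz4-/- against 7.22, 7.84 and 8.05 in Fz4+/+ kidneys. Its difference was -0.67 ± 0.27 (SE), with limma's unadjusted p of 0.0492, the only one of the 22 tested under 0.05. Of 12 muscle markers 11 were below 0, and their mean was 7.66, 6.91 and 7.76 in Fz4-/- and 7.86, 8.34 and 7.66 in Fz4+/+ samples. The muscle mean differed by -0.20, -1.43 and 0.09 in litters 1 to 3, and Cryab by -0.38, -0.99 and -0.63, so they had opposite signs in litter 3. Their part in the Cryab values was not tested. Hspb8 differed by -0.19 ± 0.20, Chordc1 by -0.09 ± 0.10, Dnajb4 by -0.15 ± 0.25 and Hspa4l by 0.32 ± 0.37.

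All 25 other ER stress genes had a probe set of their own, 18 were above 0, and the median difference was 0.0279. Eif2ak3, the ER stress kinase PERK, read 9.31, 9.27 and 9.21 in Fz4-/- against 9.05, 8.97 and 9.16 in Fz4+/+ kidneys, without overlap, a difference of 0.20 ± 0.10 (SE) with limma's unadjusted p of 0.0947. Hyou1 differed by 0.19 ± 0.17, Creld2 by 0.15 ± 0.17 and the sensor gene Atf6 by 0.15 ± 0.24. Trib3 and Chac1, targets of the Atf4 and CHOP branch, had the widest ranges of the list (2.15 and 1.45) at signals under the filter. Trib3 read 5.02, 5.71 and 5.43 in Fz4-/- and 4.14, 4.52 and 6.29 in Fz4+/+ kidneys, and Chac1 4.54, 4.83 and 5.54 in Fz4-/- and 4.76, 4.59 and 5.99 in Fz4+/+ kidneys. Litter patterns here ran both ways. Asns, an amino acid stress gene that Atf4 induces, read 10.28 (Fz4-/-) and 10.49 (Fz4+/+) in litter 3, against 9.77 to 9.88 elsewhere. Pdia4, an ER disulfide isomerase, read 9.29 and 9.09 there, against 9.81 to 10.27 elsewhere, with limma's unadjusted F p of 0.0137 for Asns and 0.00249 for Pdia4.

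Of 16 other metal and oxidative stress genes 10 were above 0, with a median difference of 0.0541 and no unadjusted p under 0.05 among the 14 tested. Mt3, the brain metallothionein, read 6.15, 5.99 and 5.47 in Fz4-/- against 6.12, 6.45 and 5.89 in Fz4+/+ kidneys, a difference of -0.28 ± 0.23 (SE), and its lowest value was not in the sample where Mt1 and Mt2 were lowest. Nfe2l2, the master regulator of oxidative stress genes, differed by 0.17 ± 0.12, its target Srxn1 by 0.23 ± 0.17 and Gclm, a subunit of the enzyme that starts glutathione synthesis, by -0.14 ± 0.24. Slc7a11, a cystine transporter gene under the filter, had the widest range of the list (2.28) and read 5.19, 5.05 and 4.29 in Fz4-/- and 5.56, 5.83 and 3.55 in Fz4+/+ kidneys.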

How the data were processed

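Gene expression was measured in 6 whole kidney samples at E13.5, 1 array each. The authors' deposited table holds 1 log2 signal for each probe set and array, made with RMA (version not given) according to the submitters' processing notes. Values ran from 2.22 to 14.79 and were used as deposited. RMA makes the arrays' distributions nearly equal and compresses differences near background.

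After 64 control probe sets were left out, 27022 of 45101 probe sets passed the filter. In the platform annotation 34958 probe sets had a single gene, 932 had several and 9211 had none, and Entrez numbers of all 32 members matched RefSeq symbols. The genotype fit (limma 3.58.1, R 4.3.3) had genotype as its sole term, with two-sided p-values adjusted by Benjamini-Hochberg over all tested probe sets. SEs of genotype differences come from that fit unless a litter block is named. Litters were compared by limma's moderated F test with genotype as a covariate. Members and lists were chosen with earlier results of these data known, and lists were given no test of their own. Values on every array are given for members with the widest range, the largest difference or no overlap in their class, and Egr1, Fos, Jun, Klf2, Myc, Ier3 and Gadd45g were added after their values were seen. Of each other list, up to 3 genes with the smallest p and up to 3 with the widest range were named among those that passed the filter, and Trib3, Chac1 and Slc7a11 were added after their values were seen. For differences within litters and for the block fit, samples were paired by litter, which the labels give as the replicate number. Deviations from the genotype means correlated by 0.577, 0.178 and 0.809 in litters 1, 2 and 3. Alternatives covered the filter, quantile normalization, array weights, the variance prior, the choice of probe set, the litter as a block or random effect, no genotype term, and each sample left out. RefSeq coordinates are given only for the sequences.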

Additional observations from a re-analysis of the deposited data

How the results depend on the processing

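Over all alternatives, none of 395 values of single members between the genotypes passed limma's threshold, the smallest adjusted p being 0.149, and 56 had the other sign, in no case where the difference had exceeded its SE. Members called between genotypes stayed at 0 under each alternative. Probe sets called numbered 2 with array weights, which gave 8.805 to the Fz4-/- sample of litter 2 and under 3 to each other sample, and 0 under the rest. With the litter as a replicate block 0 members and 0 probe sets were called, and probe sets at an unadjusted p under 0.05 numbered 841, against 239 without it, with 1 member among them (Egr2). That number ran from 124 (without the Fz4-/- sample of litter 2) to 1725 (without the Fz4+/+ sample of litter 3) with samples left out in turn, and was 6084 with array weights, with 4 members among them (Jun, Egr2, Zfp36 and Socs3).

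Calls of the litter F test depended on the setting. Probe sets called were 3 with the filter at the 60th percentile, 2990 with a trended and robust prior, 1 when probe sets were averaged by gene, 3 without the genotype term, and 0 to 1506 with samples left out in turn (326 without the Fz4+/+ sample and 1506 without the Fz4-/- sample of litter 2). Members called were 1 with that prior (Hsp90aa1) and 0 to 1 with samples left out (Nr4a1). The median difference of the early genes was 0.002 and ran from -0.0794 to 0.0985 with samples left out, where the highest was without the Fz4+/+ sample of litter 3. That of the heat shock genes was 0.0533, 0.126 when probe sets were averaged, and -0.0436 (without the Fz4+/+ sample of litter 1) to 0.0841 with samples left out. The ER stress median ran from -0.127 to 0.0526, and that of the metallothioneins from -0.276 (without the Fz4+/+ sample of litter 2) to 0.463. The cause of these shifts was not tested.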
